A study of Mus musculus with 28 samples.

Results

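The genes of the cytosolic ribosome were examined in mouse adipose tissue with and without a knockout of Fgf13. Members were all symbols made of Rpl or Rps and a digit, with Rplp0, Rplp1, Rplp2 and Rpsa and with the paralogues Rpl3l, Rpl22l1, Rpl39l and Rps27l. The Rps6k kinases, names that mark a pseudogene by -ps and genes under 1 in every library were left out. This gave 90 of the 55891 genes in the tables. Of the 90, 77 encode the ribosomal proteins themselves and are called core genes here (46 of the large subunit, including the 3 P-stalk genes, and 31 of the small subunit). A further 4 are the named paralogues, 8 are other second copies (Rpl6l, Rpl7l1, Rpl10l, Rpl36al, Rpl37rt, Rps27rt, Rps3a2 and Rps4l), and 1, Rps19bp1, is a nuclear protein that binds Rps19 and is taken in by its name only. Rpl32l, Rps12l1 and Rps3a3 were under 1 everywhere.

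The ribosome joins amino acids in a large and a small subunit, each built of ribosomal RNA and many small proteins that are needed in nearly equal numbers. Their transcripts are short and abundant, and most begin with a run of pyrimidines, the terminal oligopyrimidine (TOP) tract, through which mTOR signalling controls how well they are translated. Paralogues such as Rpl39l (male germ cells) and Rpl3l (striated muscle) can take the place of the usual protein in some tissues.

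Bulk RNA-seq was available for 28 libraries, 15 control (WT) and 13 Fgf13 KO. Inducible knockout was profiled in epididymal (ieWAT, 3 control and 3 knockout libraries) and subcutaneous white fat (isWAT, 3 and 2), and constitutive knockout in sWAT (subcutaneous, 3 and 3) and brown fat (BAT, 3 and 2), with control and Fgf13∆Adipo mice all obese after 20 weeks of high fat feeding. An additional epididymal set (eWAT, 3 and 3) has neither knockout type nor diet stated. The labels used here give no age, sex, strain or promoter for the recombination. Nothing says that libraries are separate animals, so each p value measures the spread between these libraries.

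Fgf13, the targeted gene, was lower in every knockout library than in every control library of ieWAT, isWAT, sWAT and BAT, with log2 changes of -0.70, -0.83, -0.83 and -2.13 and limma adjusted p from 0.179 to 1.00. In eWAT it was not lower (controls 20.4, 27.6 and 12.9 FPKM, libraries labelled knockout 23.1, 17.6 and 27.0 FPKM), so directions there rest on the labels. Markers matched the tissue labels: brown adipocyte genes summed to 7588 to 10385 CPM in BAT and to at most 89.5 CPM in isWAT, sWAT and ieWAT. Some libraries stood apart by skeletal muscle markers: these summed to 2866 and 3793 CPM in sWAT knockout replicates 2 and 3, against 61.8 to 76.8 CPM in control, and ranged from 53.0 to 8682 CPM in BAT. Depth ran from 13490948 reads in sWAT to 48812592 in isWAT, and is unknown for eWAT. Values below are CPM (reads scaled to library size), or FPKM for eWAT (scaled to transcript length too). A change is the limma difference of log2(value + 1), positive where knockout is higher, tested 2-sided with Benjamini-Hochberg adjustment over all genes of the depot at a threshold of 0.05. Each depot was fitted alone, and levels are not compared between depots.

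Promoter sequences show what the genes share. RefSeq promoter entries (GRCm38.p6, 250 bases before to 50 after the annotated start) existed for 67 of the 90 members. The run sought was at least 8 unbroken C or T bases on the coding strand, overlapping positions -5 to 5 around the start. This run, which resembles a TOP tract in its letters, stood in 20 of 57 core promoters, 35.1%. Runs that end before the annotated start were counted too, as in Rpl4 (14 bases from -18), and runs under 8 bases were not. The share is therefore not a count of TOP tracts. Among the 26958 promoters of genes that are not members it stood in 9.62%. The windows below hold 30 bases before and 15 from the start and were chosen to show 4 core promoters with such a run, and then Rps27rt, Rpl39 and Rpl39l, whose runs are shorter. Capitals mark the longest C or T run that overlaps those positions.
Rplp2 promoter, chr7:141447621-141447665, plus strand: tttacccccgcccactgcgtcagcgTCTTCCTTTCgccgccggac
Rps18 promoter, chr17:33955651-33955695, minus strand: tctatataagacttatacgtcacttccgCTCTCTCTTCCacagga
Rps10 promoter, chr17:27635230-27635274, minus strand: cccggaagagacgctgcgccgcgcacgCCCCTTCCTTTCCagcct
Rps27 promoter, chr3:90213634-90213678, minus strand: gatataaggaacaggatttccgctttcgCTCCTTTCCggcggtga
Rps27rt promoter, chr9:114982725-114982769, minus strand: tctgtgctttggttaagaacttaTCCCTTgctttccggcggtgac
Rpl39 promoter, chrX:37085208-37085252, minus strand: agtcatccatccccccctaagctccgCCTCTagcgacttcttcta
Rpl39l promoter, chr16:10170198-10170242, plus strand: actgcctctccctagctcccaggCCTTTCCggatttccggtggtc
The marked run is 9 bases in Rps27 and 6 in Rps27rt. The letters CCGGAAG, searched on both strands, occurred in 42.1% of core promoters and 9.01% of those of non-members, and CTTTCC in 45.6% and 26.2%. CTTTCC overlaps many of the C or T runs, so these are not separate counts. TATAAA occurred in 10.5% of core promoters and 14.1% of those of non-members, and CACGTG in 8.77% and 7.09%. A match describes letters and is not a binding site.

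In control tissue the core genes differed widely in level. Per kilobase of the annotated transcript, Rpl41, which encodes the smallest ribosomal protein, and the P-stalk gene Rplp1 led in ieWAT (1235 and 1164 CPM per kilobase), isWAT (1073 and 803), sWAT (1052 and 923) and BAT (638 and 623). In eWAT, Rplp1 (1983 FPKM) and Rps29 (1896 FPKM) led. The lowest were Rpl5, which carries the 5S RNA into the large subunit, and Rpl12, near the P-stalk. Rpl5 stood at 14.2, 34.5 and 20.6 CPM per kilobase in ieWAT, sWAT and BAT, and at 32.6 FPKM in eWAT. Rpl12 stood at 20.2, 38.5 and 18.6 CPM per kilobase and at 31.7 FPKM, and at 13.3 CPM per kilobase in isWAT, where Rpl5 was lower still. Many of these transcripts have near-identical copies: a median of 61.2% of a core transcript's 50-base words, the stated read length, also stood in transcripts of other genes, and 51 of 77 core genes shared at least 50%. Rpl5 shared 93.8% of its words and Rpl12 49.4%, and how the authors divided such reads is not given in the sources used here. Across the 77 core genes the level per kilobase and the shared percentage correlated at 0.02, 0.03, 0.17, 0.16 and -0.12 (Pearson, ieWAT, isWAT, sWAT, BAT and eWAT), as a description.

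No core gene passed the limma test in any depot, but their changes leaned one way within each. In ieWAT 71 of 77 core genes were above 0 and in isWAT 73, while in sWAT 71, in BAT 77 and in eWAT 73 were below 0. The median changes were 0.07, 0.16, -0.09, -0.34 and -0.16, beside medians over all genes of 0.02, -0.03, -0.05, -0.18 and -0.02. Without the P-stalk, the 43 large-subunit and 31 small-subunit genes had nearly the same median in each depot (0.08 and 0.08 in ieWAT, 0.17 and 0.15 in isWAT, -0.10 and -0.09 in sWAT, -0.34 and -0.35 in BAT, -0.15 and -0.16 in eWAT). The 3 P-stalk genes had medians nearer 0 in each depot, 0.00, 0.12, -0.02, -0.28 and -0.08. Rplp1 among them, at -0.36 in BAT and -0.16 in eWAT, was not nearer 0 than the core median there. The 4 X-linked core genes (Rpl10, Rpl36a, Rpl39 and Rps4x) had medians of 0.09, 0.16, -0.08, -0.43 and -0.15, near those of the 73 autosomal ones (0.07, 0.16, -0.09, -0.34 and -0.16).

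**Figure D1:**
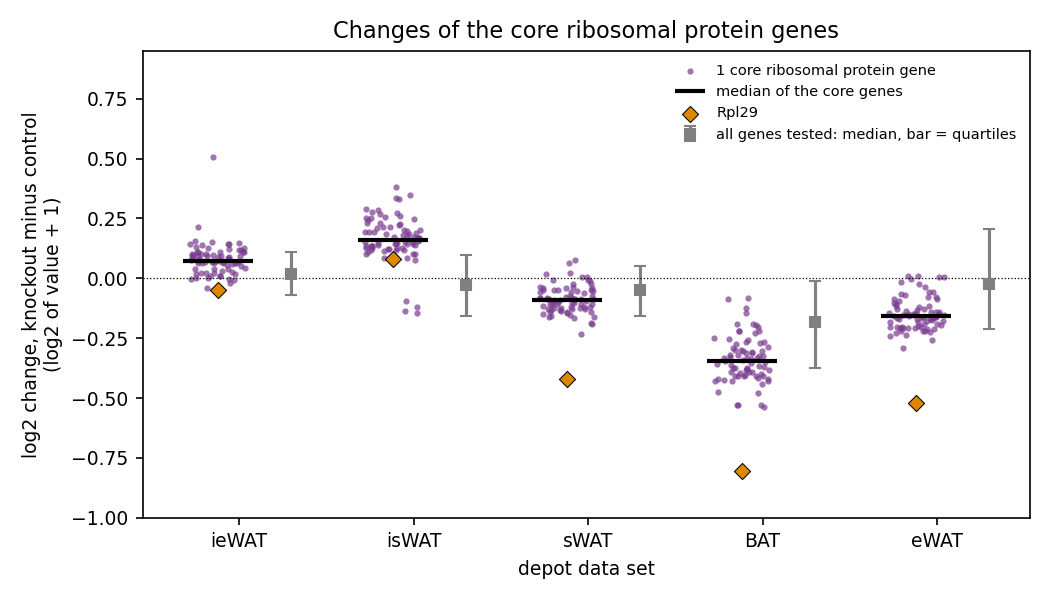
Log2 change (knockout minus control, log2(value + 1) scale) of each of the 77 core genes, 1 point per gene, in the 5 depots, with the medians of the core genes and of all genes tested and Rpl29 as an orange diamond. Core medians are 0.07, 0.16, -0.09, -0.34 and -0.16, and Rpl29 is the lowest core gene in ieWAT, sWAT, BAT and eWAT.

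Summed over the 77 genes, core reads made up 2.32%, 2.62% and 2.26% of the ieWAT table in control, against 2.65%, 2.31% and 2.60% after knockout. The groups overlapped. In isWAT the control shares were 1.65%, 1.87% and 1.70% and the knockout shares 2.03% and 1.90%, so both knockout libraries lay above all controls. In sWAT it was 2.19%, 1.92% and 2.37% against 2.05%, 2.12% and 1.92%, with overlap. In BAT it was 1.42%, 1.15% and 1.55% against 1.02% and 1.16%, and the second control library lay between the knockout libraries. In eWAT the core genes held 8.70%, 7.70% and 8.27% of the summed FPKM in control, against 7.33%, 7.02% and 7.31% where labelled knockout, all below the controls. Less RNA per cell and fewer cells of a type that makes much of it cannot be told apart in bulk tissue.

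**Figure D2:**
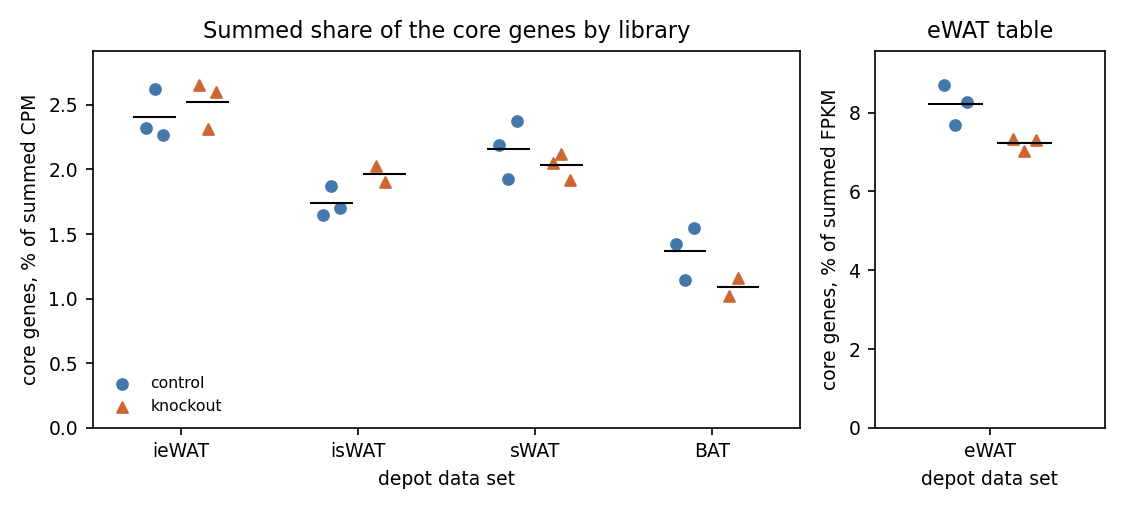
Share of the table total held by the 77 core genes (percent, vertical axis) in each library, control and knockout, with group means as horizontal lines, for the 5 depots. Knockout libraries lie above control in isWAT and below control in eWAT, and the groups overlap in the other 3 depots.

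In ieWAT, where the question is how epididymal fat responds to inducible knockout, no core gene stood out. No member was called (0 of 86 tested; 0 of 14749 genes, percent called 0), and at an unadjusted p under 0.05 there was no core gene, against 2.62% of all genes. edgeR on the recovered reads called 0 genes and DESeq2 32, none of them a member. No core gene had groups without overlap, against 3.43% of all genes higher and 1.68% lower. The largest core change was that of Rps27, a small-subunit protein with a zinc finger, at 20.9, 44.8 and 42.3 CPM in control and 58.8, 40.0 and 49.5 CPM in knockout libraries (log2 change 0.51, SE 0.30). The first control library was low and the groups overlapped. Rps7 (0.21) and Rpl13a (0.16) followed. Rps3a2 (-0.18), Rpl7l1 (-0.05) and Rpl29 (-0.05) stood lowest. The P-stalk genes recruit elongation factors. Rplp0 among them averaged 825 ± 52.3 CPM in control, against 838 ± 71.6 CPM after knockout (SD, n = 3 each), a difference smaller than either spread. Rplp1 (-0.01) and Rplp2 (0.00) were as close, and the values of Rplp0, Rplp2 and Rpl41 were below 0 with TMM or median-ratio scaling. Leaving out single libraries took the ieWAT core median from 0.03 to 0.13 and the core genes above 0 from 52 to 77. Lymphocyte markers (14 of 14 above 0, none at 0 in every library) summed to 1192 to 2198 CPM in control. In knockout libraries they summed to 3224 to 5340 CPM. Macrophage markers (9 of 9 below 0, median -0.18) and fibroblast and progenitor markers (8 of 8 below 0, median -0.23) leaned down. The part of these cell types in these small changes was not tested.

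In isWAT, inducible knockout in subcutaneous fat, most core genes were higher in both knockout libraries, each by a little. Of the 77 core genes, 44 were higher without overlap between the groups, as were 12.2% of all genes. Rpl5 was the 1 core gene lower without overlap (22.9, 25.6 and 25.4 CPM against 22.0 and 22.4 CPM), a pattern that 19.4% of all genes had. Rps27a, which is made as a fusion of ubiquitin and a small-subunit protein, stood at 134, 169 and 165 CPM in control and 208 and 198 CPM in knockout libraries (0.38, SE 0.11). Both knockout libraries exceeded all controls. Rps24, which takes part in maturation of the small subunit's RNA, stood at 187, 241 and 218 CPM against 289 and 257 CPM (0.35, SE 0.12). Rpl31 at the tunnel exit was at 110, 122 and 120 CPM against 156 and 140 CPM (0.33, SE 0.09). Rps7 was at 151, 181 and 173 CPM against 204 and 220 CPM (0.33, SE 0.10). For each of these the higher control library was the second, as it was for the core share. Rpl5, Rpl12, Rpl10 and Rps27 were the 4 core genes below 0 (-0.14, -0.14, -0.12 and -0.10).

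No isWAT member passed with limma (0 of 87 tested; 1 of 14258 genes, 0.00701%), and the smallest adjusted p of a core gene was 0.298. At an unadjusted p under 0.05 there were 19 core genes, against 13.1% of all genes. That count was 3 with the replicate block, and leaving out single libraries took it from 3 (without knockout replicate 1) to 32 (without control replicate 2). edgeR called 1 gene, not a member. DESeq2 on the same reads called 7 core genes, all higher (Rpl31, Rps12, Rps20, Rps7, Rps27a, Rpl6 and Rpl35), and Rpl39l, among 259 genes. The core median ran from 0.11 to 0.22 when each library was left out, and 73 core genes were above 0 in each of these fits. Macrophage markers (7 of 9 above 0, none at 0 in every library) summed to 907 to 1303 CPM in control. In knockout libraries they summed to 1266 to 1371 CPM. Lymphocyte markers (11 of 12 tested below 0, median -0.32) and erythroid markers (5 of 5 below 0, median -0.61) leaned down. The part of these cell types was not tested. Of the core genes 60 have principal transcripts of up to 1000 bases. Other genes that short had a median of 0.10 in isWAT and longer ones -0.04. In the other depots the short class was also the higher one (0.05 and 0.01 in ieWAT, 0.00 and -0.05 in sWAT, -0.09 and -0.19 in BAT, 0.02 and -0.03 in eWAT), while the core median lay below the all-gene median in sWAT, BAT and eWAT. The plan had set this class by the longest annotated transcript instead. By that measure 33 core genes were short, the isWAT medians were 0.12 and -0.04, and the short class was again higher in each depot.

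The paralogue Rpl39l had the largest change of any member in isWAT. Its protein lines the exit tunnel in male germ cell ribosomes in place of Rpl39. It stood at 1.77, 4.40 and 2.46 CPM in control and at 14.8 and 12.7 CPM in knockout libraries (log2 change 1.98, SE 0.27, limma adjusted p = 0.170). Both knockout libraries were above all controls, as they were for 12.2% of all genes. The call depended on the tool and on 1 library: DESeq2 gave an adjusted p of 1.73e-07, edgeR 0.299, and limma without the second control library 0.0154. Rpl39 itself was at 101, 120 and 112 CPM in control and 137 and 119 CPM in knockout libraries, with overlap, so Rpl39l made up 2.47% ± 0.943 (SD, n = 3) of the pair in control and 9.71% ± 0.0857 (SD, n = 2) in knockout libraries. The coding sequences of both are shown because they can be told apart: 133 of 156 bases are identical (85.3%), and capitals mark the bases that differ.
Rpl39: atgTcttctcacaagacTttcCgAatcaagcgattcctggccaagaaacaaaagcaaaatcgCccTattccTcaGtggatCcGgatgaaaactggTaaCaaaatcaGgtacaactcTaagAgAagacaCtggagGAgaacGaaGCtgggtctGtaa
Rpl39l: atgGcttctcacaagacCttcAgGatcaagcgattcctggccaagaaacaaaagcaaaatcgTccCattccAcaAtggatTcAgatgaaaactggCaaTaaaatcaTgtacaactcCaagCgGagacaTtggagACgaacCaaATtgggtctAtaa
None of the 50-base words of the Rpl39l transcript stood in another gene's transcripts, and 16.5% of those of Rpl39 did.

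In the other depots Rpl39l varied by library. In sWAT it stood at 4.61, 1.70 and 8.20 CPM in control and 0.703, 28.9 and 15.6 CPM in knockout libraries, with the first knockout library lowest of all and the other 2 highest. Its log2 change of 0.87 (SE 1.20) became -1.61 without knockout replicates 2 and 3, the libraries high in muscle markers. In ieWAT it reached 7.88 CPM in the third control library and at most 0.573 CPM in the other 5. In BAT it was at 1.55, 1.63 and 4.61 CPM against 1.23 and 1.67 CPM, and in eWAT under 1 FPKM in every library.

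**Figure D3:**
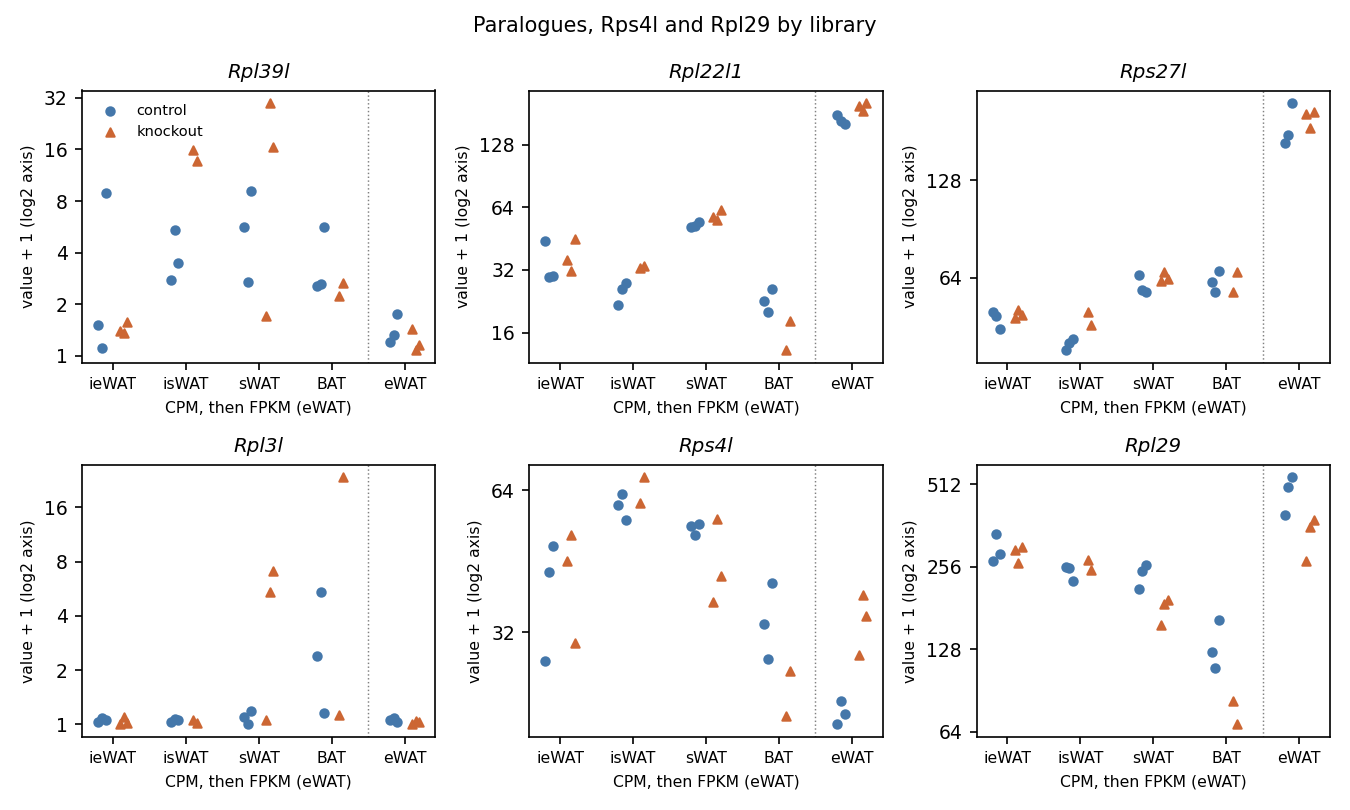
Values plus 1 (CPM, or FPKM for eWAT, log2 vertical axes) of Rpl39l, Rpl22l1, Rps27l, Rpl3l, Rps4l and Rpl29 in each control and knockout library of the 5 depots. Rpl39l separates the groups in isWAT (1.77 to 4.40 CPM against 12.7 and 14.8 CPM), Rps4l in eWAT, and Rpl29 in sWAT, BAT and eWAT.

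Rpl22l1, the paralogue of Rpl22, whose level Rpl22 is known to restrain, differed without overlap in 4 depots. Of all genes, 12.2%, 3.8% and 21.6% were higher without overlap in isWAT, sWAT and eWAT, and 38.1% were lower in BAT. In isWAT it was at 20.6, 24.9 and 26.8 CPM in control and 31.6 and 32.3 CPM in knockout libraries (0.40, SE 0.12, limma adjusted p = 0.314). In sWAT it was at 50.5, 50.8 and 53.5 CPM against 56.3, 54.8 and 61.0 CPM (0.15, SE 0.07, adjusted p = 0.533 with limma). In eWAT it was at 177, 165 and 159 FPKM against 195, 185 and 202 FPKM (0.21, SE 0.09, limma adjusted p = 0.137). In these 3 depots every knockout library was above every control, and none of the differences passed. In BAT the order was the opposite, 21.7, 19.2 and 24.9 CPM in control and 12.2 and 17.1 CPM in knockout libraries (-0.56, SE 0.18, limma adjusted p = 0.237). The share of Rpl22l1 in the sum with Rpl22 was 31.0% ± 3.87 in control and 37.5% ± 2.48 in eWAT libraries labelled knockout (SD, n = 3 each), where Rpl22 itself had a change of -0.21. In BAT that share was 22.3% ± 0.180 (SD, n = 3) and 19.9% ± 3.00 (SD, n = 2).

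Rps27l, a p53 target and paralogue of Rps27, was at 37.1, 39.2 and 40.4 CPM in isWAT control and 49.0 and 44.5 CPM in knockout libraries (0.26, SE 0.09, limma adjusted p = 0.324), again without overlap, as for 12.2% of all genes. Its changes elsewhere were 0.05 in ieWAT, 0.08 in sWAT, 0.00 in BAT and 0.09 in eWAT, all with overlap. In BAT, where all 77 core genes were below 0, Rps27l averaged 61.3 ± 4.53 CPM in control (SD, n = 3) and 61.2 ± 6.55 CPM in knockout libraries (SD, n = 2), and with TMM scaling its change was 0.20. Rpl3l, the striated muscle paralogue of Rpl3, was at 1.41, 4.45 and 0.157 CPM in BAT control and 0.123 and 22.5 CPM in knockout libraries. The skeletal muscle markers followed the same order of libraries, with a mean log2 level of 4.72, 6.19 and 0.99 in control, against 0.61 and 8.35 after knockout. In sWAT, Rpl3l was at 0.0942, 0 and 0.184 CPM in control and 0.0541, 4.40 and 6.10 CPM in knockout libraries, beside muscle marker levels of 2.86, 2.65 and 2.59 against 2.34, 5.74 and 6.31. Rpl3l was high only where muscle markers were, among these libraries of both depots, and it was under 1 in every ieWAT, isWAT and eWAT library.

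In sWAT, constitutive knockout in subcutaneous fat, 71 core genes were below 0, and this lean depended on single libraries. The core median of -0.09 was -0.02 without control replicate 3, with 26 core genes above 0, and -0.19 without control replicate 2, with 0 above 0. No member was called (0 of 86 tested; 3 of 13816 genes, 0.0217%). The smallest core adjusted p was 0.447 with limma, 1 core gene had an unadjusted p under 0.05, against 9.66% of all genes, and neither edgeR (1 gene called) nor DESeq2 (52) called a member. Groups did not overlap for 3 core genes, all lower (Rpl28, Rpl29 and Rps13), against 12.3% of all genes lower and 3.8% higher. With TMM scaling 61 core genes were below 0, and the core median was -0.04. Without knockout replicates 2 and 3 it was -0.08, and 2 members were then called, Rpl29 and Rps4l, among 681 genes; that fit leaves 1 knockout library, assumed to vary like the controls, and was chosen after seeing the data. Without knockout replicate 1, 1 member and 120 genes were called. Of 9 macrophage markers 9 were below 0, and their sums ran from 1702 to 2086 CPM in control and 852 to 1881 CPM in knockout libraries. Fibroblast and progenitor markers leaned up, with 7 of 8 above 0 (median 0.23). Lymphocyte markers leaned down, with 13 of 14 below 0 (median -0.85). Their mean log2 levels overlapped (2.22 to 4.68 in control, 2.19 to 2.46 in knockout libraries). The part of these cell types was not tested.

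Rpl29, a basic protein of the large subunit, was the lowest core gene in ieWAT, sWAT, BAT and eWAT. In sWAT it stood at 212, 246 and 259 CPM in control and 157, 186 and 193 CPM in knockout libraries (-0.42, SE 0.11, limma adjusted p = 0.447). In BAT it stood at 124, 109 and 163 CPM against 82.0 and 67.2 CPM (-0.80, SE 0.19, limma adjusted p = 0.237). In eWAT it stood at 394, 498 and 543 FPKM against 267, 355 and 378 FPKM (-0.52, SE 0.18, limma adjusted p = 0.0929). Each knockout library was below each control in these 3 depots, and with TMM scaling its BAT change was -0.60. The same separation held for 12.3%, 38.1% and 19.6% of all genes in sWAT, BAT and eWAT, and for 3, 34 and 30 core genes. In ieWAT (267, 336 and 284 CPM against 293, 263 and 300 CPM, -0.05) and isWAT (0.08) the groups overlapped. DESeq2 called Rpl29 in BAT (adjusted p = 0.0193, -0.60), as did limma without the second control library (adjusted p = 0.0113). At least 1 of the 50-base words of Rpl29 stood in 84 other genes, beside 123 for Rpl7a and 89 for Rps16. The pseudogene Gm6344 holds 60.5% of the Rpl29 words.

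BAT, constitutive knockout in brown fat, had all 77 core genes below 0, from -0.80 (Rpl29) to -0.08 (Rplp2), and 34 were lower without overlap, against 38.1% of all genes lower and 6.37% higher. The whole table leaned down as deposited, with an all-gene median of -0.18, and 73 core genes lay below that median. With TMM scaling the all-gene median was 0.00 and the core median -0.14, with 69 core genes below 0. The other 8 core genes were above 0 on that scale, among them Rplp2, Rpsa and Rpl41, as was the copy Rpl36al. Rpl10a, of the large subunit, was at 147, 110 and 163 CPM in control and 86.6 and 104 CPM in knockout libraries (-0.54, SE 0.19). Rpl10, the late-joining protein near the peptidyl transferase centre, was at 287, 209 and 322 CPM against 171 and 201 CPM (-0.53, SE 0.20). Rps6, the target of the S6 kinases, was at 229, 186 and 254 CPM against 157 and 173 CPM (-0.42, SE 0.15). In each of these the knockout libraries lay below all controls, and the second control library was the lowest control. Rpsa (479, 418 and 526 CPM against 423 and 430 CPM, -0.15), also known as a laminin receptor, and Rplp2 (255, 201 and 256 CPM against 212 and 233 CPM, -0.08) overlapped.

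No BAT member passed with limma (0 of 87 tested; 1 of 13253 genes, 0.00755%), and the smallest core adjusted p was 0.237. At an unadjusted p under 0.05 there were 24 core genes, against 19.2% of all genes. That count was 3 with TMM or median-ratio scaling and 2 with the replicate block, and leaving out single control libraries took it from 3 (without control replicate 1) to 71 (without control replicate 2). As in isWAT, the block sets control replicate 3 aside, and its core median was that without this library (-0.26). With less data left to estimate the spread, its count cannot show whether libraries are paired. edgeR called 0 genes and DESeq2 791, of which 1, Rpl29, was a member. The second control library decided the count: without it 52 members, 50 of them core genes and all of those lower, were called among 2201 genes, and the core median was -0.47. Leaving out any other BAT library gave 0 called members. Macrophage markers (9 of 9 below 0, median -2.70, none at 0 in every library) summed to 257 to 1203 CPM in control and 104 to 105 CPM in knockout libraries. Fibroblast and progenitor markers (8 of 8 below 0, median -1.06) summed to 572 to 1926 CPM against 329 to 481 CPM. Lymphocyte markers (9 of 9 tested below 0, median -0.74) summed to 80.8 to 271 CPM against 58.8 to 73.0 CPM. Their part in the lower ribosomal protein values was not tested.

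In eWAT 73 of 77 core genes were below 0 in the FPKM values used here. In TPM values deposited for the same libraries, 44 core genes were below 0 and 33 above, and 1 of 11790 genes was called. The 2 sets of values thus differ for these libraries, and the cause was not tested. The FPKM core median of -0.16 was -0.10 without control replicate 3 and -0.23 without control replicate 2. Groups did not overlap for 30 core genes, all lower, against 19.6% of all genes lower and 21.6% higher. The median core level was 0.896-fold of control. Of 13736 genes, 2041 were called (14.9%), but of the 86 members tested 1 was called, and it is not a core gene. Without knockout replicate 3 only 12 genes were called, and 0 members. The smallest core adjusted p was 0.0929 (Rpl29), and 2 core genes had an unadjusted p under 0.05, against 33.9% of all genes. Rpl17, which lies at the tunnel exit, was at 659, 594 and 766 FPKM in control and 539, 542 and 559 FPKM in libraries labelled knockout (-0.29, SE 0.12, limma adjusted p = 0.135). Rpl37rt, a copy of Rpl37, was at 325, 307 and 301 FPKM against 280, 251 and 246 FPKM (-0.27, SE 0.09, limma adjusted p = 0.0974). Both had all knockout values below all controls. Adipocyte markers rose in 8 of 8 (sums of 7254 to 9338 FPKM in control and 17184 to 21703 FPKM), and 3 of 9 macrophage markers fell (sums of 6480 to 11627 FPKM against 3896 to 5353 FPKM), and their part in the core values was not tested.

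The called member was Rps4l, which rose, while 10.2% of all genes were called higher. It stood at 19.4, 21.9 and 20.5 FPKM in control and 27.7, 37.3 and 33.6 FPKM in libraries labelled knockout (0.64, SE 0.12, limma adjusted p = 0.0201). All 3 labelled knockout libraries were above all controls, as they were for 21.6% of all genes. Rps4x, the X-linked gene it copies, was at 861, 770 and 818 FPKM against 705, 737 and 732 FPKM (-0.17, SE 0.09), all lower, so Rps4l made up 2.47% ± 0.281 of the pair in control and 4.33% ± 0.524 in labelled knockout libraries (SD, n = 3 each). The call was near the threshold: the limma adjusted p was 0.0611 with no filter on low values and 0.0627 with the replicate block. In the TPM table of the same libraries the log2 change was 2.98, with a limma adjusted p of 0.917. Without single libraries the limma adjusted p in FPKM ran from 0.0374 to 0.0930. It was over 0.05 without control replicate 2 or 3 or knockout replicate 2 or 3. The annotation (GENCODE M21) calls Rps4l a transcribed processed pseudogene on chromosome 6. Over 789 aligned bases it matched the Rps4x coding sequence at 80.1%, with 157 differences, and 18.0% of its 50-base words stood in 1 other gene. The first 150 aligned bases of each are shown because reads from the 2 genes can be separated there, and capitals mark differences.
Rps4x: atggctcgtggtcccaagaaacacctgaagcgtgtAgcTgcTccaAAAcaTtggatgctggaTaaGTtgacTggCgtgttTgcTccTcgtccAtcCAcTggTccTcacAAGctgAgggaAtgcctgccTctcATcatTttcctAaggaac
Rps4l: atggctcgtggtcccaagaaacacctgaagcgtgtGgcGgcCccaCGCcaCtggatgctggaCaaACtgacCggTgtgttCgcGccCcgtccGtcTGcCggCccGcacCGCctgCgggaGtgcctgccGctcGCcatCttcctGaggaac
In BAT, Rps4l was on the other side: 32.4, 27.2 and 39.7 CPM in control and 20.2 and 25.5 CPM in knockout libraries (-0.50, SE 0.19, limma adjusted p = 0.242), without overlap, as for 38.1% of all genes. In sWAT it had a change of -0.26, and in ieWAT (0.09) and isWAT (0.11) its groups overlapped.

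Rps27 and its copy Rps27rt have the same coding sequence, 255 of 255 bases, shown once because no read within it can be assigned to 1 of them.
Rps27 and Rps27rt: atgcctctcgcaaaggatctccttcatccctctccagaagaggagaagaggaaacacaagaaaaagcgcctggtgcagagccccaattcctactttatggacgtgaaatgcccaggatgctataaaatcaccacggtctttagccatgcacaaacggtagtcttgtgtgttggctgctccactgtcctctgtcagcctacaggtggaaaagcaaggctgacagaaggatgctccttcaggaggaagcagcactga
In ieWAT, isWAT and eWAT most of the reads of the pair were listed under Rps27rt, at 203, 227 and 190 CPM in ieWAT control and 255, 209 and 203 CPM in knockout libraries. In isWAT it was at 133, 165 and 133 CPM against 158 and 139 CPM, and in eWAT at 1648, 1198 and 1368 FPKM against 1049, 1299 and 1146 FPKM. In every sWAT and BAT library Rps27rt was listed at 0, and Rps27 at 182, 154 and 244 CPM in sWAT control and 173, 190 and 155 CPM in knockout libraries. The split between the 2 rows thus differed mainly by table, and the Rps27 change in ieWAT carries this limit. Rps27rt made up 80.4% to 90.7% of the pair in ieWAT. In isWAT it made up 81.5% to 82.1% in control and 83.1% to 83.4% in knockout libraries, a small difference without overlap. Rows of ribosomal protein pseudogenes held 0.130% to 0.161% of the ieWAT table and 0.0107% to 0.0214% of the sWAT and BAT tables, a difference between tables of the same kind.

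**Figure D4:**
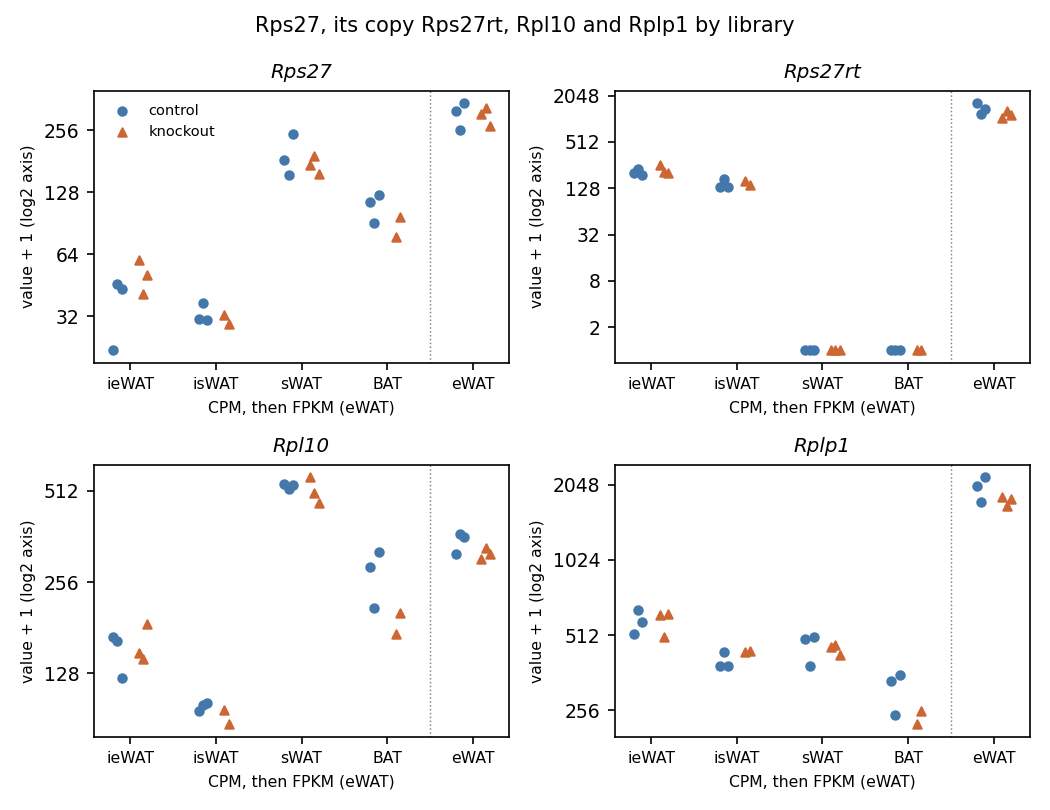
Values plus 1 (CPM, or FPKM for eWAT, log2 vertical axes) of Rps27, its identical copy Rps27rt, Rpl10 and Rplp1 in each library of the 5 depots. Rps27rt is listed at 0 in all sWAT and BAT libraries, where Rps27 takes 76.6 to 244 CPM.

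Core genes that serve as reference genes in quantitative PCR were read one by one. Rplp0 was at 618, 626 and 596 CPM in isWAT control and 674 and 657 CPM in knockout libraries, without overlap (0.12, SE 0.08). In sWAT its control mean was 650 ± 76.4 CPM and its knockout mean 642 ± 4.70 CPM (SD, n = 3 each; -0.01), and this small difference was above 0 with TMM scaling. In BAT (-0.28) and eWAT (-0.08) its groups overlapped. Rpl13a had changes of 0.16, 0.26, -0.13, -0.32 and -0.24 in ieWAT, isWAT, sWAT, BAT and eWAT, and its groups did not overlap in isWAT (302, 364 and 314 CPM against 402 and 380 CPM) and in eWAT (1465, 1148 and 1293 FPKM against 1053, 1145 and 1103 FPKM). Rps18 had changes of 0.09, 0.12, -0.03 (above 0 with TMM scaling), -0.35 and -0.18. Rpl19 had 0.08, 0.17, -0.10, -0.22 and -0.15, Rpl32 0.07, 0.21, -0.05, -0.41 and -0.12, and Rps29 0.05, 0.11, -0.13, -0.29 and -0.15. None of these changes passed the test in limma. Of all genes, 12.2% were higher without overlap in isWAT and 19.6% lower in eWAT. Rpl36al, a copy of Rpl36a, was as abundant as its parent in ieWAT (81.5 ± 5.15 and 83.1 ± 11.5 CPM in control; SD, n = 3), with changes of 0.09, 0.23, -0.05, -0.19 and 0.02, of which that in BAT was above 0 with TMM scaling. Rpl7l1, which acts in ribosome assembly, had -0.05, -0.06, -0.03 (above 0 with TMM scaling), -0.25 and 0.01. Rpl10l, a copy used in testis, reached 5.28 CPM in 1 ieWAT control library and was listed at 0 in all sWAT and BAT libraries.

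Other lists of the translation machinery were read beside the core genes. In BAT the core median of -0.34 stood beside 0.00 for 78 mitochondrial ribosomal proteins and 0.17 for 83 nuclear oxidative phosphorylation genes, with 0 called in each. In eWAT both lists moved up while core genes did not: 18 of 78 mitochondrial ribosomal proteins rose and 0 fell (median 0.22), and 17 of 85 oxidative phosphorylation genes rose and 0 fell (median 0.28), as against 10.2% of all genes called higher. Mrps6, a small-subunit protein of the mitochondrial ribosome, averaged 72.8 FPKM in control and 139 FPKM where labelled knockout (0.92, SE 0.11, limma adjusted p = 0.0122). Ndufb3, a subunit of complex I, averaged 88.3 and 163 FPKM (0.86, SE 0.13, limma adjusted p = 0.0128). In isWAT all 3 lists leaned up, with medians of 0.16, 0.13 and 0.17 for core genes, mitochondrial ribosomal proteins and oxidative phosphorylation.

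Ribosome biogenesis factors (40 genes, 0 called in any depot with limma) had medians of -0.03, -0.09, -0.04, -0.22 and -0.04, and elongation factors 0.01, 0.12, -0.03, -0.13 and -0.07. In isWAT, biogenesis factors were thus on the other side of 0 from the core genes, with 29 of 40 below 0. Of the other transcripts with a TOP tract (22 genes; medians 0.04, 0.05, -0.06, -0.18 and -0.02), 1 fell in eWAT, a share near the 4.7% of all genes called lower. It was Eif4b, an initiation factor, at 76.2, 72.8 and 74.8 FPKM in control and 62.3, 60.3 and 62.6 FPKM (-0.27, SE 0.07, limma adjusted p = 0.0479). Among 13 genes of initiation and TOP control tested in eWAT, 3 rose and 1 fell, beside 10.2% of all genes called higher and 4.7% called lower. Myc, a transcription factor that drives ribosome production, fell from a mean of 19.4 to 12.2 FPKM (-0.62, SE 0.13, limma adjusted p = 0.0274). Eif4ebp1, the mTOR target that holds back cap-dependent initiation, rose from 70.3 to 131 FPKM (0.85, SE 0.21, limma adjusted p = 0.0427). Rps6kb1, the S6 kinase (0.37), and Eif4g1, the initiation scaffold (0.39), also rose.

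**Figure D5:**
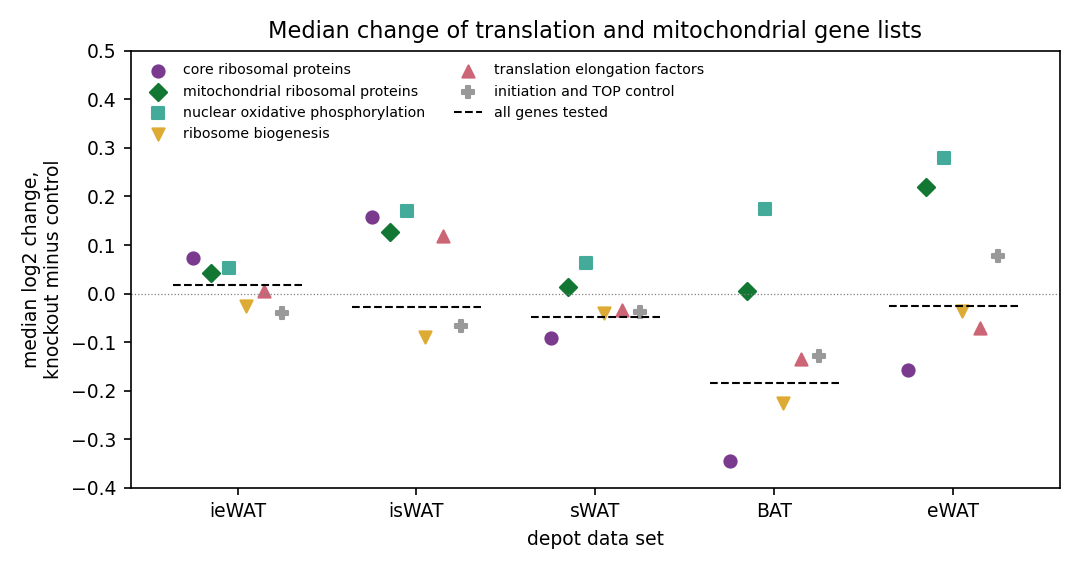
Median log2 change (knockout minus control) of the core genes and of the other lists of the translation machinery and mitochondria in the 5 depots. In BAT the core median is -0.34 and that of oxidative phosphorylation 0.17, and in eWAT they are -0.16 and 0.28.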

How the data were processed

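The 28 libraries were deposited as 5 depot tables, of 7 tables in all; columns without a sample numbered 0. The authors used Salmon, FastQC, MultiQC and DESeq2 1.38.3, per the submitters' processing notes; aligner, build, annotation and read assignment: not given in the sources used here. The deposited ieWAT, isWAT, sWAT and BAT values are CPM, whose low values are whole multiples of 1 read (from 100% of values in ieWAT and sWAT to 99.998% in isWAT, within 0.01 reads), so reads were recovered from them. The deposited eWAT values are FPKM. A deposited TPM table of the same eWAT libraries, named as counts, served only as an alternative. Symbols came from a reference table of gene names and covered 92.0% of identifiers (96.0% in ieWAT). Transcript lengths and sequences came from the shortest principal coding transcript in GENCODE M21, which for Rps20 is 3706 bases long.

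limma 3.58.1 in R 4.3.3 (trend and robust) was fitted per depot to log2(value + 1) for genes that reached 1 in enough libraries to fill the smaller group, which kept 86 or 87 of the 90 members and all 77 core genes; members were not selected on their change. The plan named edgeR for counts; since the tables hold CPM or FPKM, edgeR 4.0.16 and DESeq2 1.42.0 on recovered reads were alternatives, beside other pseudocounts, filters, scalings, a replicate block and leaving out each library. Scripts were tested on simulated data. An exact permutation test could not give a p below 0.1 with 3 against 3 libraries, or 0.2 with 3 against 2. Named genes are the paralogues, copies and their parents, P-stalk, reference and X-linked genes, the extremes of level and change, called members, and up to 5 called genes per list; others were chosen after their values were seen. The members and lists were chosen with earlier results of these data known.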

Additional observations from a re-analysis of the deposited data

Results flagged for a closer look

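The members below were set apart because every knockout library lay on one side of every control library in one depot and on the opposite side in another. The difference between depots was not tested, and the values are log2 changes. Such separation within a depot was common over all genes: 12.2% in isWAT, 3.8% in sWAT and 21.6% in eWAT were higher. Lower without overlap were 38.1% in BAT and 19.6% in eWAT. Rpl10a had 0.12 in isWAT, -0.54 in BAT and -0.15 in eWAT. Rpl3 had 0.15 in isWAT, -0.35 in BAT and -0.21 in eWAT, and Rps7 had 0.33, -0.32 and -0.16. Rps27a, the ubiquitin fusion gene, had 0.38, -0.40 and -0.18 in the same order. Rpl22 had 0.22 in isWAT and -0.37 in BAT, and Rpl32 had 0.21 and -0.41. Rpl13a had 0.26 in isWAT and -0.24 in eWAT, and Rpl17 had 0.27 and -0.29. Rpl22l1 had 0.40 in isWAT, 0.15 in sWAT and 0.21 in eWAT, against -0.56 in BAT. Rps4l had 0.64 in eWAT and -0.50 in BAT. The share of the table held by the core genes was 0.222 percentage points higher in isWAT knockout than control libraries and the difference was -1.003 percentage points in eWAT.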

How the results depend on the processing

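No called result reversed. The count of called members was 8 in isWAT and 1 in BAT with DESeq2 (0 with limma), and in eWAT, where 1 was called, it was 0 with no filter on low values, with the replicate block and with the TPM table. Leaving out 1 library gave 0 to 1 in isWAT (1 without control replicate 2), 0 to 1 in sWAT (1 without knockout replicate 1), 0 to 52 in BAT (52 without control replicate 2) and 0 to 2 in eWAT (2 without control replicate 1). Without sWAT knockout replicates 2 and 3, a choice added after seeing the data, it was 2. The BAT core median was -0.14 with TMM and with median-ratio scaling, and the eWAT core median was -0.32 in the TPM table, where the all-gene median was 0.65. The cause of these differences was not tested. Same-numbered libraries deviated together at correlations from -0.56 (isWAT) to 0.39 (BAT), not all above 0.1. With 2 or 3 libraries per group, these values cannot show whether a number marks a shared animal, litter or day. The labels do not say. The replicate block ended the Rps4l call in eWAT (adjusted p = 0.0627, limma), where all 2041 calls fell to 0. The block leaves less data to estimate the spread, and in isWAT and BAT it sets control replicate 3 aside. A fall in calls with it thus cannot show whether libraries are paired. In ieWAT no setting gave a called member. Over the settings of single-gene changes and paralogue shares, 2399 values kept their side of the threshold or, uncalled, moved by less than the spread between libraries (small ones could change sign), 96 moved further, 23 gained a call and 7, all of Rps4l in eWAT, lost it. Depth is unknown for eWAT, and 2 or 3 libraries per group limit every test.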
